A study of Mus musculus with 20 samples.

Results

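Pro-B cells, the first cells of bone marrow with B lineage identity, were compared with common lymphoid progenitors (CLP), the stage before them that can still give rise to several kinds of lymphocyte. The comparison took every array titled as a pro-B cell (ProB, n = 2) and every array titled as a common lymphoid progenitor (CLP, n = 3), which are 5 of the 20 arrays of the series. Both groups came from wild-type C57bl/6 mice aged 8 to 14 weeks, and the labels give bone marrow as the tissue. Cells were sorted straight into lysis buffer, and the RNA was amplified by repeated in vitro transcription before hybridisation to a mouse expression array read near the 3' end of transcripts. Further arrays of this strain and age hold 2 arrays each of stem cells (HSC), of MPP, a multipotent progenitor, of LMPP, a multipotent progenitor primed for lymphoid fates, and of CD4 T cells, and 3 arrays of GMP, the progenitor of granulocytes and monocytes. The other arrays hold mature natural killer (NK) cells of Rag2-deficient 129 mice with Ets1 present (n = 2) or deficient (n = 2). Nothing in the labels used here gives the sort markers or says that replicates are different animals, so the p-values reflect only the scatter among these arrays, and that scatter may be technical.

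Commitment to the B lineage is driven by a small circuit of transcription factors. E2A (encoded by Tcf3) and Ebf1 act with signals of the interleukin 7 receptor to switch on genes of the pre-B cell receptor, and Pax5 then closes off other fates. At this stage the immunoglobulin heavy chain gene is assembled by V(D)J recombination, and a successful heavy chain is tested at the surface with the surrogate light chain before the cells divide.

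All levels below are log2 array intensities, so a difference of 1 is a doubling in intensity, and each gene is read on 1 probe set. Readings of other probe sets are given for some genes only, and those of other genes may differ too. Levels of different genes were not compared, since probe sets differ in brightness. The values carry no detection call, and array medians ran from 3.78 to 4.04. Where a group lay below the array medians, as Jchain, Enpep and Tmem255a did in CLP and Mn1 did in ProB, its level may be background, and the difference there is one of intensities and not a measured fold of RNA. Differences are ProB minus CLP with the standard error (SE) of limma's moderated model over all 20 arrays. A gene was called at a Benjamini-Hochberg adjusted p below 0.05. The model holds 1 spread per gene for all 9 groups, and CLP scattered most. The root mean square standard deviation (SD) over genes was 0.56 in CLP, 0.40 in ProB and 0.17 in GMP. The SE may therefore understate the scatter of the ProB and CLP arrays. Of 13479 genes tested, 2840 (21.1%) were called higher in ProB and 1886 (14%) lower, and the median difference over all genes was -0.02. In 3281 genes (24.3%) both ProB arrays lay above every CLP array, and in 3035 (22.5%) both lay below. Genes were grouped into 23 lists, and a listed gene not counted as tested was dim or was not analysed here.

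CLP arrays 1 and 3 stood apart from CLP array 2. Actin signal near the 3' end exceeded that near the 5' end by 2.07 and 3.11 in the ProB arrays, against 5.20 and 5.27 in CLP arrays 1 and 3 and 3.26 in CLP array 2. The mean level of 16 housekeeping genes was 9.90 and 10.22 in the ProB arrays, 8.99 and 8.78 in CLP arrays 1 and 3, and 9.87 in CLP array 2. The cause of these differences between CLP arrays, and their part in the results, were not tested as such. List counts are also given with CLP array 2 as the single CLP array. Then 1223 genes (9.07%) were called higher and 1234 (9.15%) lower, of which 1199 and 925 were called the same way with all 3 arrays, and 52 called genes changed sign. All 5 arrays gave 4726 calls (35.1%), and leaving out ProB array 2 gave 3066. Centring each array on the housekeeping genes moved the median of all genes by -0.85, with 8.53% of genes then called higher and 53% lower. Every list count given after this centring stands beside those shares, and falls in a list there partly reflect the shift of all genes. List medians are also given on that scale where they change sign. In bulk samples fewer cells of a type and less RNA per cell cannot be told apart.

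The labels were first checked against marker genes. Of the 8 pro-B markers read here, Cd79a, Cd79b, Vpreb1 and Igll1 were higher in ProB. Ebf1 and Pax5 did not pass the test, and Rag1 and Dntt were lower in ProB than in CLP. Of 6 CLP markers, Flt3, Kit, Ly6d and Cd34 were lower in ProB, as was Dntt, and Il7r did not pass. Thus 4 of 8 pro-B markers and 5 of 6 CLP markers were called in the direction of the labels, while Rag1 and Dntt as pro-B markers went against it. The tally uses 1 probe set per gene: Ebf1 was called higher on 3 others, and the call of Kit ended under 9 alternatives.

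The surrogate light chain separated the groups widely. Igll1 encodes lambda5, which pairs with VpreB to stand in for a light chain before one has been made. It had 12.07 and 12.90 in the ProB arrays, against 7.60, 8.45 and 7.99 in the CLP arrays. Both ProB arrays were far above all CLP arrays, by 4.47 on average (SE 0.30, adjusted p = 8.34e-09). Vpreb1, its partner, had 11.84 and 12.93 in ProB, against 9.53, 10.22 and 8.99 in CLP, a difference of 2.81 (SE 0.39, adjusted p = 3.16e-05). Vpreb3, a related protein of the B lineage, had 8.92 and 8.68 in ProB, against 5.82, 5.63 and 5.50 in CLP, a difference of 3.15. Neither VpreB gene showed overlap between the groups. CLP was not without these transcripts: Vpreb1 averaged 9.58 ± 0.62 (SD, n = 3) in CLP and 4.09 in LMPP, and Igll1 averaged 8.01 ± 0.43 in CLP and 5.15 in LMPP.

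Of 23 pre-B receptor and signalling genes listed, these included, 20 were tested: 11 rose, 2 fell and 7 were not called, with a median of 1.39 against -0.02 for all genes. Cd79b, which carries the receptor's signal with Cd79a, had 9.25 and 10.25 in ProB, against 6.61, 7.68 and 5.44 in CLP. It rose by 3.17 (SE 0.44, adjusted p = 2.9e-05), and Cd79a by 1.90 (SE 0.24, adjusted p = 9.37e-06). Both genes were higher on each ProB array than on any CLP array. Cd22, a lectin that dampens B cell receptor signals, had 8.44 and 8.69 in ProB and 3.81, 3.99 and 4.78 in CLP, a rise of 4.37. Among kinases, Blk (2.19) and Btk (1.51) rose, as did Prkcb (1.69), the adaptor Pik3ap1 (1.23) and the exchange factor Vav1 (1.38). Against this, Syk, the kinase recruited first by Cd79a and Cd79b, had 9.07 and 9.29 in ProB and 10.36, 10.10 and 9.95 in CLP, and fell by 0.95 (SE 0.24, adjusted p = 0.00533). Its other probe sets (-0.08, 0.36 and -0.27) were not called. The mean of all Syk probe sets, the one used included, differed by -0.24 (adjusted p = 0.419). Plcg2, the phospholipase downstream of it, fell by 0.62. The adaptor Blnk stood at 9.58 and 10.63 in ProB against 8.60, 9.76 and 9.56 in CLP, and did not pass the test (0.79, adjusted p = 0.0735). Blnk was already well above its LMPP mean of 4.53 in CLP.

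Against CLP array 2 alone, 9 pre-B receptor genes rose and 1 fell, at a median of 1.19, and after centring on housekeeping genes 7 rose and 5 fell. Vav1 (0.42) and Btk (0.88) lost their call with CLP array 2 alone. Without ProB array 1 the calls of Vav1 (1.26) and Plcg2 (-0.51) ended, and without ProB array 2 those of Btk (1.36), Pik3ap1 (0.95) and Plcg2 (-0.73). The call of Plcg2 also ended without CLP array 3 (-0.55) and with CLP array 2 alone (-0.65), so that Syk was then the only member called lower.

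**Figure D1:**
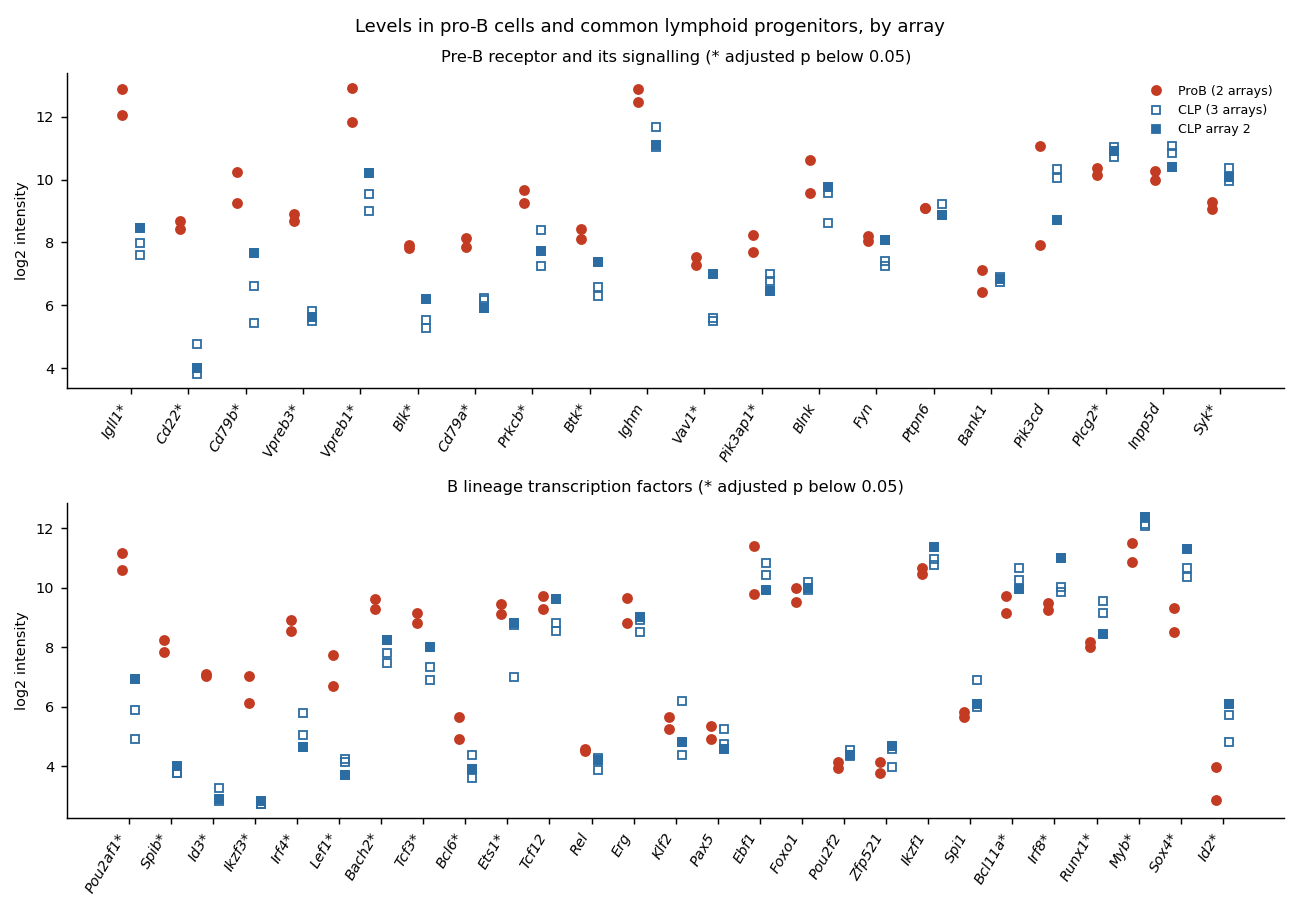
Log2 intensity of each gene on each array for pre-B receptor genes (upper panel) and B lineage transcription factors (lower panel), ordered by the difference ProB minus CLP. Red circles are the 2 ProB arrays and blue squares the 3 CLP arrays, the filled square being CLP array 2; an asterisk marks an adjusted p below 0.05. Igll1, Cd22, Pou2af1 and Spib stand widely apart between the groups, and Ebf1, Pax5 and Blnk overlap.

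Of 28 B lineage transcription factors listed, 27 were tested: 10 rose, 6 fell and 11 were not called. Ebf1, needed to start the B lineage program, had 9.79 and 11.41 in ProB, against 10.85, 9.93 and 10.42 in CLP. The groups overlapped, and the difference of 0.20 did not pass (SE 0.34, adjusted p = 0.678). On this probe set its mean was 2.47 in LMPP, 2.64 in MPP and 2.50 in HSC. Other probe sets of Ebf1 disagreed with the one used. Over all probe sets, 3 more were called, at 2.25, 1.72 and 1.51, for example with 8.05 and 8.33 in ProB against 6.35, 5.82 and 5.65 in CLP. Ebf1 is therefore uncertain between ProB and CLP. Pax5, the factor that maintains B cell identity, had 5.36 and 4.91 in ProB and 4.77, 4.57 and 5.26 in CLP, with overlap and a difference of 0.27 (SE 0.25, adjusted p = 0.433). Its second probe set gave 0.38, also not called.

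The widest rises in the list were those of Pou2af1, Spib and Id3. Pou2af1, a coactivator of octamer-binding factors in B cells, had 10.62 and 11.19 in ProB and 5.90, 6.94 and 4.94 in CLP, a rise of 4.97 (SE 0.50, adjusted p = 8.73e-07), with an LMPP mean of 2.36. Spib, an ETS factor of B cells and plasmacytoid dendritic cells, had 7.85 and 8.25 in ProB and 3.77, 4.01 and 3.80 in CLP, a rise of 4.19 (SE 0.23, adjusted p = 7.12e-10). Id3, an inhibitor of E proteins, had 7.12 and 7.03 in ProB and 2.86, 2.91 and 3.28 in CLP, a rise of 4.06. For all of these the ProB arrays were clear of the CLP arrays. Ikzf3 (Aiolos, 3.79), Irf4 (3.56) and Lef1 (3.17) rose as well, and the groups did not overlap. Ikzf3 and Irf4 rest on 1 probe set each, since their other probe sets were not called. Smaller rises were seen for Bach2 (1.62), a repressor of plasma cell fate, for Tcf3 (1.56), and for Bcl6 (1.31) and Ets1 (1.12). Other probe sets of Ets1 gave 2.10 and 1.61, both called, and 0.74, not called. Bach2 and Bcl6 were not called on any other probe set.

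The 6 factors that fell were Id2, Sox4, Myb, Runx1, Irf8 and Bcl11a. Id2, an E protein inhibitor used by innate lymphoid and NK cells, had 3.97 and 2.86 in ProB and 5.72, 6.09 and 4.82 in CLP. It fell by 2.13 (SE 0.42, adjusted p = 0.000706), while its relative Id3 rose. Sox4 fell by 1.85 and Myb by 1.01, both factors that early B cells also need, and Runx1 (-0.96), Irf8 (-0.91) and Bcl11a (-0.85) were called lower. Myb rests on 1 probe set, since its others (1.03 and -0.71) were not called. The mean of all Myb probe sets, the one used included, differed by -0.23 (adjusted p = 0.643). On the mean of their probe sets Runx1 (-0.33) and Bcl11a (-0.41) were not called either. In Myb the ProB arrays, at 10.88 and 11.51, lay below 12.16, 12.37 and 12.09 in CLP, close to its LMPP mean of 11.43. Foxo1, Ikzf1, Spi1, Tcf12 and Erg were not called, though over all probe sets other ones were called higher for Tcf12 (2.16 and 1.14) and Foxo1 (0.98).

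The median of these factors was 0.32 with all CLP arrays and 0.35 with CLP array 2 alone, but -0.53 after centring on housekeeping genes. With CLP array 2 alone 7 of them rose and 5 fell, and Bach2 (1.23), Tcf3 (0.97), Ets1 (0.48), Bcl11a (-0.53) and Runx1 (-0.37) were no longer called. Without ProB array 1 only 2 were called lower, and the calls of Bcl6 (0.96), Ets1 (1.28), Bcl11a (-0.58), Irf8 (-0.79), Runx1 (-0.87) and Myb (-0.70) ended. Ets1 also lost its call without ProB array 2 (0.95) or CLP array 3 (0.52), and Irf8 without ProB array 2 (-1.03) or CLP array 2 (-0.56). The calls of Bcl11a (-0.87) and Runx1 (-0.71) ended without CLP array 1, and that of Bcl11a without CLP array 3 (-0.67).

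The promoters of the list members with the widest rises, Igll1 and Cd22 of the pre-B receptor list and Pou2af1 and Spib of the transcription factors, are shown because Ebf1 is known to bind sites of the form CCCNNGGG. Each sequence is the 250 bases upstream of the gene's start in RefSeq on the mouse build GRCm38.p6, written 5' to 3' on the gene's strand. Capitals mark matches to CCCNNGGG, which reads the same on both strands. Igll1 lies at chr16:16863986-16864235 on the minus strand, Cd22 at chr7:30879029-30879278 (minus), Pou2af1 at chr9:51213440-51213689 (plus) and Spib at chr7:44532072-44532321 (minus).
Igll1: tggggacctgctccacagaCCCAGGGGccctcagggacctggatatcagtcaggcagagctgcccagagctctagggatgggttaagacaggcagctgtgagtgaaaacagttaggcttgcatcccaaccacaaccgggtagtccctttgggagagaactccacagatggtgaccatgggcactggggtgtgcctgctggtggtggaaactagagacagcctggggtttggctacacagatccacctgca
Cd22: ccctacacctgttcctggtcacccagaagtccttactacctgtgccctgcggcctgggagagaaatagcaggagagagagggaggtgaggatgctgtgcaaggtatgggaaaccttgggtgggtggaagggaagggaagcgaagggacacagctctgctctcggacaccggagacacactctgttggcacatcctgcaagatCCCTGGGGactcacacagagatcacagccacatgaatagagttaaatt
Pou2af1: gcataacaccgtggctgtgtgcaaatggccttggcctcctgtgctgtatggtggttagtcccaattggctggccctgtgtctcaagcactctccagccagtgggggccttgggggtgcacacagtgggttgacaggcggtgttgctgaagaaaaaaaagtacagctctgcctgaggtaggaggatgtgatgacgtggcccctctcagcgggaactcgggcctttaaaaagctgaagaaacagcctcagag
Spib: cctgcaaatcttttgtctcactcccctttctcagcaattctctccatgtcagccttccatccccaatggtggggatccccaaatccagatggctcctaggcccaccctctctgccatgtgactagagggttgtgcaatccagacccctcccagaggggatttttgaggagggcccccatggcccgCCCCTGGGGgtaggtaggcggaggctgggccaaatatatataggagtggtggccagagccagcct

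Counting back from the gene's start, Igll1 held 1 match at -231 and Cd22 held 1 at -48. Spib held 2 overlapping matches, at -65 and -64, and Pou2af1 held none in this window. A match describes letters only and is not a site or a cause. Over genes with a promoter in the table, CCCNNGGG occurred in 13.7% of 2360 genes higher in ProB, 17.1% of 1470 genes lower in ProB, 15.5% of 10845 genes tested and 11.8% of all 32851 promoters. For CANNTG, the core read by E proteins, the shares were 55.5% of the genes higher in ProB, 61.2% of those lower and 58.4% of genes tested. For GGAA, the core read by ETS factors, searched on both strands, they were 93.4%, 91.6% and 93.0% in the same order. The Igll1 window also held 3 matches to CANNTG and 1 to GGAA, and the Cd22 window 2 and 5.

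Of 23 surface genes of the B lineage tested, 8 rose, 4 fell and 11 were not called, with a median of 0.20. Enpep, the aminopeptidase known as BP-1 that marks pro-B and pre-B cells, had 8.47 and 8.05 in ProB and 2.89, 2.44 and 2.87 in CLP. It rose by 5.53 (SE 0.23, adjusted p = 1.12e-11), and its level in CLP was that of LMPP (2.71). Ms4a1, which encodes CD20, had 6.39 and 6.58 in ProB and 3.34, 2.56 and 2.35 in CLP, a rise of 3.74. Bst1 (BP-3) rose by 2.22, and Tnfrsf13b, the TACI receptor, by 2.16. Cxcr4, the receptor that holds cells near bone marrow stroma, went the other way, with 7.24 and 7.89 in ProB and 10.18, 10.45 and 9.55 in CLP. It was called lower by 2.50 (SE 0.82, adjusted p = 0.0248). For all of these genes the ProB and CLP arrays did not overlap.

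The median of the surface genes was 0.13 with CLP array 2 alone, where 5 rose and 4 fell, and -0.65 after centring on housekeeping genes. Tnfrsf13b was not called with CLP array 2 alone (1.21). Cxcr4 lost its call, at nearly the same size, without ProB array 1 (-2.17), without ProB array 2 (-2.82), without CLP array 1 (-2.44) and with CLP array 2 alone (-2.89).

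Of 16 recombination and end-joining genes listed, 14 were tested: 5 rose, 2 fell and 7 were not called. Rag1, which with Rag2 cuts the DNA at receptor segments, had 8.50 and 7.51 in ProB, against 9.70, 11.07 and 9.25 in CLP. It was lower in ProB on every array, by 2.00 (SE 0.39, adjusted p = 0.000758), though far above its LMPP mean of 3.23. Rag2 had 7.74 and 6.28 in ProB and 7.50, 8.16 and 7.34 in CLP, with overlap and no call (-0.65, adjusted p = 0.196). Dntt, the terminal transferase that adds bases at joins, had 11.65 and 12.74 in ProB and 13.67, 13.60 and 13.37 in CLP. It fell by 1.35 (SE 0.35, adjusted p = 0.00563) on the probe set used, with -2.52 and -0.71 on its other probe sets, the last not called. Without ProB array 1 the difference of Dntt was -0.81 and no longer called.

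The 5 genes that rose were Lig4, Hmgb2, Nhej1, Xrcc5 and Poll. Lig4, the ligase that seals the breaks, had 6.91 and 6.85 in ProB and 3.84, 4.31 and 3.35 in CLP, a rise of 3.04 (SE 0.26, adjusted p = 1.33e-07) with no overlap. Nhej1 rose by 1.43, Xrcc5 (Ku80) by 1.00 and Poll, a gap-filling polymerase, by 0.90. Hmgb2, which bends DNA for the recombinase and is also a gene of dividing cells, rose by 1.55 with all CLP arrays. On this probe set it stood only 0.30 above CLP array 2. Its other probe sets were called higher by 3.01 and 2.50, and on both of them each ProB array also lay above CLP array 2. Xrcc4, Xrcc6, Polm, Prkdc, Atm and Trp53bp1 were not called, and Xrcc6 changed sign with the setting (0.07 with all CLP arrays, -0.99 with CLP array 2 alone and -0.78 after centring on housekeeping genes).

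The recombination list's median of 0.34 turned to -0.12 with CLP array 2 alone, where 2 rose and 3 fell, and to -0.51 after centring on housekeeping genes, where Nhej1 (0.58), Xrcc5 (0.15) and Poll (0.06) were no longer called. Without ProB array 2 the number that rose was 3, and the calls of Hmgb2 (1.28) and Poll (0.72) ended. Poll also lost its call without CLP array 3 (0.82) and with CLP array 2 alone (0.79), and Xrcc5 without ProB array 1 (0.88) and with CLP array 2 alone (0.91).

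Of 27 cytokine receptor and signalling genes listed, 25 were tested: 1 rose, 12 fell and 12 were not called, with a median of -0.81. Flt3, the receptor for the ligand that expands early lymphoid progenitors, had 6.72 and 6.37 in ProB, against 11.43, 11.48 and 10.88 in CLP. It fell by 4.72 (SE 0.39, adjusted p = 7.54e-08) to about the GMP mean of 6.40. Il7r, the receptor chain for interleukin 7, had 10.25 and 10.53 in ProB and 11.19, 11.72 and 11.20 in CLP. Both ProB arrays were below the CLP arrays, but the difference of -0.98 was not called (SE 0.40, adjusted p = 0.0616), and a second probe set gave 0.05. Kit, the stem cell factor receptor, had 6.05 and 5.87 in ProB and 6.76, 8.03 and 6.65 in CLP and was called by a narrow margin (-1.19, adjusted p = 0.0473). Kit lost its call without ProB array 1 (-1.27), ProB array 2 (-1.10) or CLP array 2 (-0.74).

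Of 7 receptor chains of other cytokines given here, 3 fell and 4 were not called. Il6st, the shared chain of interleukin 6 type receptors, fell by 2.27, its partner Il6ra by 2.03, and Csf2rb, the shared chain for GM-CSF and interleukin 3, was also called lower (-2.01). Of genes known as targets of STAT signalling, Socs3 fell by 2.87, Pim1 by 1.68 and Cish by 1.44, while Socs1 (-0.16) and Pim2 (0.09) were not called. Socs2, another such target, was the 1 gene of the list that rose, by 1.69, with 7.12 and 7.39 in ProB and 5.76, 4.83 and 6.09 in CLP. Mycn fell by 2.54 and Myc by 1.32. Mycn rests on 1 probe set, since its others (0.14 and -0.09) were not called. Stat5b (-0.81) and Stat3 (-0.90) were called lower, and Stat5a, Jak1, Jak3 and the chains Crlf2 (-0.67), Ifngr1 (-0.07), Tgfbr1 (0.06) and Tgfbr2 (0.73) were not called.

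When CLP array 2 was the only CLP array, 1 cytokine gene rose and 11 fell, at a median of -0.83. After centring on housekeeping genes none rose and 21 fell, on a scale where 53% of all genes were called lower and 8.53% higher. Without CLP array 2, 2 rose. Without ProB array 2 the calls of Stat5b (-0.68) and Stat3 (-0.77) ended. That of Stat3 also ended with CLP array 2 alone (-0.39) and on the mean of its probe sets (-0.35).

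Of 25 genes of stem cells and early progenitors tested, 18 fell, 7 were not called and limma called none higher (1 was higher at an unadjusted p below 0.05). Cd34, a surface glycoprotein of progenitors, had 3.09 and 4.06 in ProB, against 8.52, 10.17 and 8.46 in CLP, and fell by 5.47 (SE 0.41, adjusted p = 2.74e-08). Ccr9, a chemokine receptor of thymus-seeding progenitors, had 3.16 and 3.45 in ProB and 7.87, 8.83 and 7.94 in CLP, a fall of 4.91. Cd27, a TNF receptor family member, had 4.31 and 3.62 in ProB and 7.95, 8.40 and 7.35 in CLP, a fall of 3.94. In each the ProB arrays were low and well clear of CLP. The transcription factors Meis1 (-3.54) and Hoxa9 (-3.44), which keep progenitors from differentiating, fell too. Notch1, the receptor that directs progenitors to the T lineage, and Satb1, a chromatin organiser of lymphoid progenitors, were picked out after their values were seen. Notch1 had 8.39 and 8.67 in ProB and 11.86, 11.68 and 11.70 in CLP (-3.22), and Satb1 fell by 2.97.

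The median of the progenitor genes was -2.05, and -2.07 with CLP array 2 alone, where 17 fell. Gfi1, a repressor used by stem cells and by early lymphoid cells, was the member higher at an unadjusted p (1.03), and without CLP array 2 the list had 1 called rise.

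**Figure D2:**
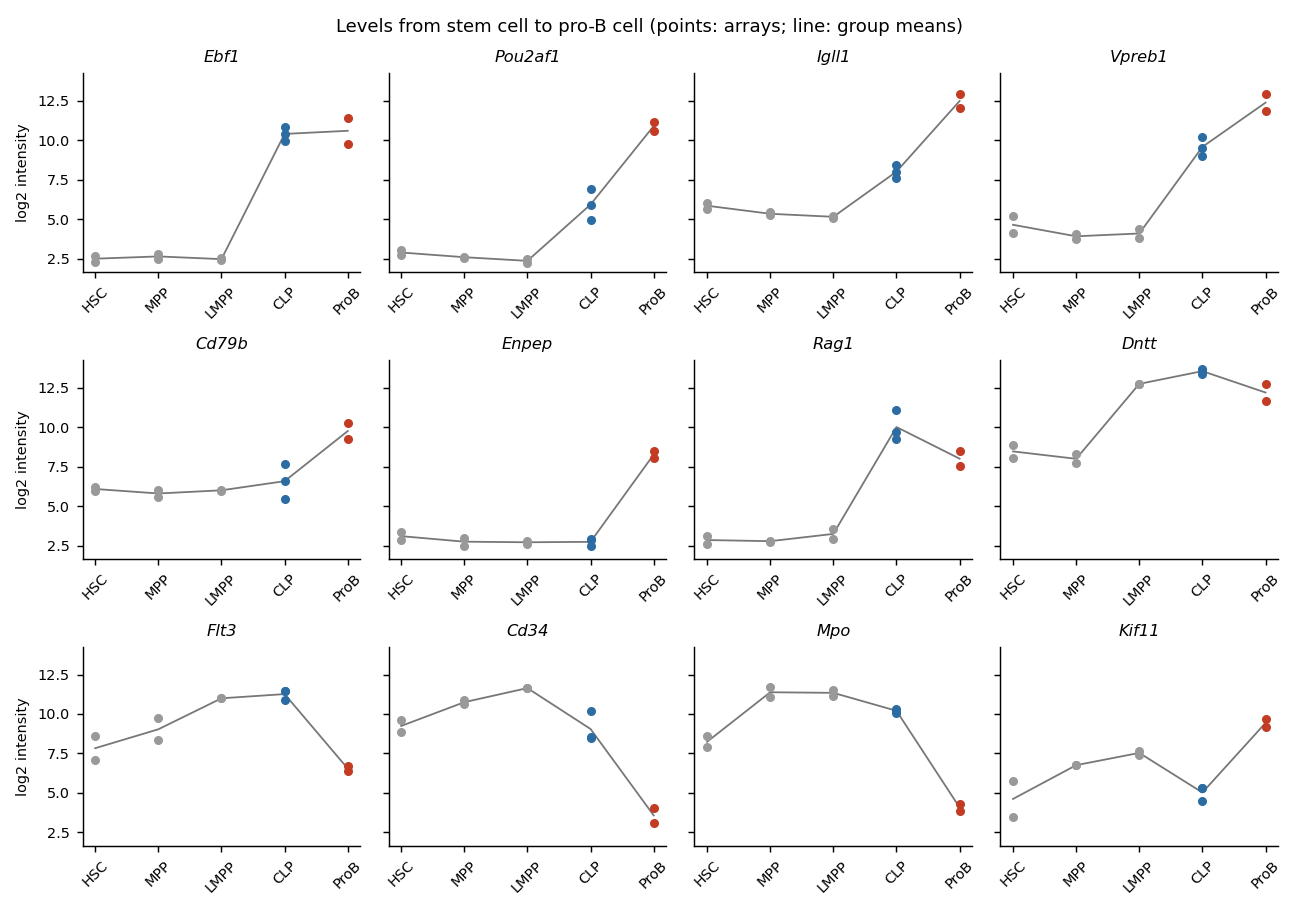
Log2 intensity of 12 genes in HSC, MPP, LMPP, CLP and ProB, in the order of development; points are arrays and lines join group means. Ebf1 and Rag1 step up between LMPP and CLP, Pou2af1, Igll1, Cd79b and Enpep stand highest in ProB, and Flt3, Cd34 and Mpo are low in ProB.

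Markers of other blood lineages were next examined. Mpo, myeloperoxidase of granulocyte precursors, had 4.33 and 3.83 in ProB, against 10.21, 10.34 and 10.06 in CLP. The fall of 6.13 (SE 0.37, adjusted p = 2.06e-09) was the widest of the 12 falls named, and Mpo in ProB was at the level of CD4 T cells (3.99). Csf1r, the macrophage growth factor receptor, had 5.52 and 4.36 in ProB and 8.98, 8.41 and 9.10 in CLP, a fall of 3.89. Tyrobp, an adaptor of myeloid and NK receptors, fell by 3.45 and Ctsg, a granule protease, by 1.91. Of 22 myeloid genes tested 9 fell, 13 were not called and limma called none higher (0 at an unadjusted p below 0.05), with a median of -0.61. Against CLP array 2 alone 6 fell, and without ProB array 1, 6. Elane and Prtn3, granule proteases of the same precursors, were not called. They had 4.34 to 4.75 and 3.76 to 4.33 in CLP, near the array medians of 3.78 to 4.04, which left little room for a fall.

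The NK and innate lymphoid list had 4 of 18 members lower and none called higher by limma (0 at an unadjusted p below 0.05), with a median of -0.44. The shares over all genes tested were 14% lower and 21.1% higher. Nkg7, a cytotoxic granule protein, had 4.97 and 4.05 in ProB and 7.74, 8.73 and 8.30 in CLP, a fall of 3.74. Il18r1 fell by 3.40, Klrd1 by 2.38 and Id2 as given above, and with CLP array 2 alone 4 fell. The defining factors Eomes and Tbx21 were not called, with 3.51 and 3.82 in ProB against 3.13 to 3.87 in CLP for Eomes. Eomes in CLP lay below the CLP array medians, which left little room for a fall. The dendritic cell list had 6 of 14 members lower and none called higher by limma (0 at an unadjusted p below 0.05), with a median of -0.61. Cox6a2, a mitochondrial subunit seen in plasmacytoid dendritic cells, had 5.52 and 5.46 in ProB and 7.82, 8.13 and 9.13 in CLP, a fall of 2.88. Itgax (-1.48), Tlr7 (-1.47) and Tcf4 (-1.21) fell as well, and 5 fell with CLP array 2 alone. Without CLP array 2 the list had 1 called rise. The call of Siglech (-1.05) ended without ProB array 1 (-0.84) and with CLP array 2 alone (-0.72).

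Of 17 T lineage genes tested, 1 rose, 2 fell and 14 were not called, with a median of -0.27. Over all genes tested, 21.1% were called higher and 14% lower. With CLP array 2 alone 1 T lineage gene rose and 3 fell, at a median of -0.09. Thy1, a surface glycoprotein of T cells, had 6.22 and 5.59 in ProB and 4.30, 3.71 and 4.25 in CLP, a rise of 1.82 (SE 0.29, adjusted p = 0.00013), against a CD4 T cell mean of 11.39. Cd247 (-1.43) and Cd6 (-1.18) were called lower, and neither was called without ProB array 1 (-1.12 and -0.74). Cd247 was also not called on the mean of its probe sets (-0.35). Without CLP array 2, 4 were called lower. Of the erythroid and megakaryocyte list 2 of 14 rose, Zfpm1 (1.90) and Car2 (1.40), and limma called none lower (1 at an unadjusted p below 0.05). Car2 was 0.37 above CLP array 2 and lost its call without any 1 of ProB array 1 (1.21), ProB array 2 (1.59), CLP array 1 (1.12) or CLP array 3 (1.16), and Zfpm1 was then the only member that rose. Without ProB array 1, and with CLP array 2 alone, 1 member was called lower. The mean level of the T lineage list was 4.21 and 4.40 in the ProB arrays and 4.53 to 4.61 in the CLP arrays, and that of the NK list 3.67 and 3.66 in ProB and 4.44 to 4.62 in CLP.

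Of 16 genes of mature B and plasma cells tested, 3 rose (Jchain, Ms4a1 and Ccr7), 1 fell (Cd80) and 12 were not called. Jchain, the chain that joins secreted IgM and IgA, had 11.39 and 11.68 in ProB, against 3.02, 3.17 and 3.13 in CLP. The rise of 8.43 (SE 0.34, adjusted p = 8.07e-12) left no overlap, and Jchain also stood at 7.52 in CD4 T cells. Mzb1, a chaperone of antibody-producing cells, had 10.14 and 10.45 in ProB and 6.52, 7.42 and 5.70 in CLP, a rise of 3.75. Of defining plasma cell genes, Prdm1 had 3.42 and 2.59 in ProB and 3.16, 3.15 and 3.28 in CLP, and Sdc1 had 6.47 and 6.70 in ProB and 6.08, 7.33 and 6.40 in CLP. Neither was called, nor was Xbp1 (0.48, adjusted p = 0.356). Immunoglobulin genes outside the list, chosen after their values were seen, were higher as well: Igha by 7.24, Igkv8-30 by 5.81 and Ighg3 by 5.11. The list's median was 0.04 with all CLP arrays, -0.01 with CLP array 2 alone and -0.81 after centring on housekeeping genes. The mean level of the list was 5.76 and 5.74 in the ProB arrays and 5.02, 5.09 and 4.79 in the CLP arrays, and the part of mature B or plasma cells in the rise of Jchain was not tested. Cd80 (-0.77) was -0.19 against CLP array 2 and lost its call without ProB array 1 (-0.79), ProB array 2 (-0.75), CLP array 1 (-0.47) or CLP array 3 (-0.78). Ccr7 (1.28) lost its call without ProB array 1 (0.94), and without CLP array 2 the list had 5 that rose.

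Of 10 antigen presentation genes tested 1 rose, 4 fell and 5 were not called, with a median of -0.48. H2-Ob, a subunit of the class II modulator H2-O, had 7.83 and 7.14 in ProB and 10.77, 11.52 and 10.27 in CLP, a fall of 3.37 (SE 0.34, adjusted p = 9.13e-07). H2-DMa, a chain of the peptide exchanger H2-DM, fell by 3.01, and the peptide transporter genes Tap1 and Tap2 by 0.81 each. H2-Ab1, a class II chain, rose by 1.34 with all CLP arrays, but its call ended with CLP array 2 alone (0.54) and without ProB array 2 (1.12). None of the list rose and 5 fell with CLP array 2 alone, and 2 rose without CLP array 3. Tap2 lost its call without ProB array 2 (-0.62) or CLP array 2 (-0.58), and Tap1 without ProB array 1 (-0.51) or CLP array 3 (-0.68). Tap1 was also not called on the mean of its probe sets (-0.26).

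**Figure D3:**
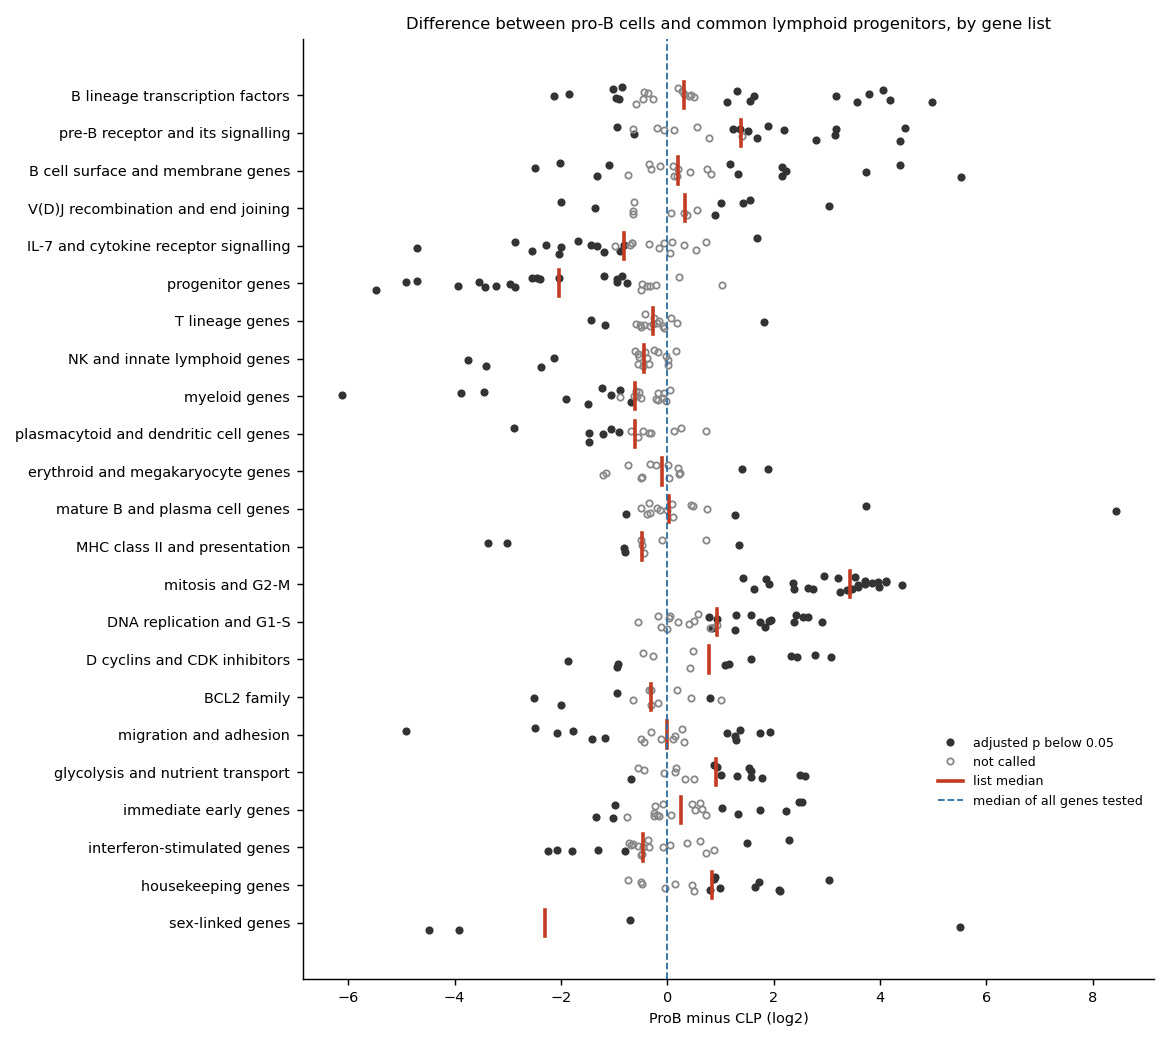
Difference ProB minus CLP on the log2 scale for each tested member of 23 gene lists; filled points have an adjusted p below 0.05, open points are not called, red bars are list medians and the dashed line is the median of all genes (-0.02). The mitosis list lies wholly to the right, the progenitor list mostly to the left, and Jchain at 8.43 is the point farthest right.

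Mitosis was the 1 list of 23 whose tested members were all called in the same direction. All 24 mitosis genes tested rose in ProB, by 1.43 to 4.41 with a median of 3.43, and in each both ProB arrays were above every CLP array. Kif11, a spindle motor, had 9.19 and 9.68 in ProB and 5.30, 5.30 and 4.47 in CLP, a rise of 4.41 (SE 0.44, adjusted p = 7.29e-07). Plk1, a mitotic kinase, had 9.40 and 8.98 in ProB and 4.99, 5.29 and 4.95 in CLP, a rise of 4.11. Cenpa, the histone of centromeres, rose by 4.11, Bub1 by 3.98, Kif20a by 3.96 and Tpx2 by 3.85. Cenpa rests on 1 probe set, since its others (-0.44 and 0.55) were not called. CLP was also low beside LMPP, whose means were 7.53 for Kif11, 9.04 for Cenpa, 7.36 for Bub1 and 8.22 for Kif20a. In each of these genes the LMPP mean lay above every CLP array and below both ProB arrays. The rise stood with CLP array 2 alone (23 called, median 2.82) and after centring on housekeeping genes (22 called, median 2.58). The mean level of the list was 9.70 and 9.98 in ProB against 6.52, 7.06 and 6.47 in CLP. Outside the list, Cdc25b, a phosphatase that starts mitosis (4.65), and Racgap1, a protein of cell division (4.41), were also among the 12 widest rises, antigen receptor genes left out.

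Of 27 replication genes tested, 15 rose, 12 were not called and limma called none lower (0 at an unadjusted p below 0.05), with a median of 0.93. E2f2, a transcription factor of the S phase program, had 8.52 and 8.36 in ProB and 5.63, 5.41 and 5.55 in CLP, a rise of 2.91. Tk1 rose by 2.56, Cdc45 by 2.42, Rpa2 by 2.38 and Rrm1 by 1.96. The probe sets of Cdc45 disagreed. Over all probe sets, its other one was called lower (-0.91), with 4.23 and 4.78 in ProB and 5.10, 5.18 and 5.97 in CLP. The mean of Cdc45's probe sets differed by 0.76. Ccne2 rose by 2.65 with all CLP arrays and was 1.03 above CLP array 2, where it was not called. The helicase subunits Mcm2, Mcm4, Mcm5, Mcm6 and Mcm7 were not called, picked out after their values were seen; Mcm7, for example, had 11.94 and 12.47 in ProB and 12.15, 12.41 and 12.09 in CLP. With CLP array 2 alone 9 replication genes rose, with a median of 0.52, and after centring on housekeeping genes 10 rose and 7 fell. Without ProB array 2 or CLP array 2, 1 was called lower.

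Of 14 D cyclin and CDK inhibitor genes tested 7 rose, 3 fell and 4 were not called. Ccnd3, the D cyclin that pre-B cells need to divide, had 10.71 and 10.89 in ProB and 7.66, 8.28 and 8.14 in CLP. It rose by 2.77 (SE 0.25, adjusted p = 2.04e-07) on the probe set used, while its other probe sets were not called. Ccnd1, in contrast, had 5.17 and 4.85 in ProB and 6.86, 6.69 and 7.08 in CLP and fell by 1.87. The inhibitors Cdkn2d (3.08) and Cdkn2c (2.44) rose, as did Rb1 (2.32). The list's median of 0.78 was 0.09 with CLP array 2 alone and -0.06 after centring on housekeeping genes. The number that rose was 4 with CLP array 2 alone, without ProB array 2 or without CLP array 1, and the number that fell was 1 without ProB array 1. Rbl1 (1.58) was 0.42 above CLP array 2 and lost its call without ProB array 1 (1.55), ProB array 2 (1.60) or CLP array 1 (1.16).

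Of 12 genes of the BCL2 family tested, 1 rose, 3 fell and 8 were not called, with a median of -0.31 (1 rose and 2 fell with CLP array 2 alone, median -0.27). Bcl2, which protects cells from apoptosis, had 6.27 and 6.38 in ProB and 8.83 ± 0.15 (SD, n = 3) in CLP, a fall of 2.51 (SE 0.25, adjusted p = 7.33e-07). Of its 5 probe sets, 4 were lower by 2.45 or more, and the last, at -0.24, was not called. Bcl2l11 (Bim), which promotes apoptosis, fell by 2.00, with 8.15 and 7.75 in ProB and 9.88, 9.72 and 10.22 in CLP. Mcl1, a survival factor of lymphoid cells, was called lower by 0.94, and Bcl2l1, which encodes Bcl-xL, was higher by 0.81. The probe sets of Mcl1 disagreed. Over all probe sets, another was called higher (2.72), further ones were called lower (-0.91 and -0.97), and those at -0.33 and 0.61 were not called. The difference over the mean of Mcl1's probe sets was 0.030, and the calls of Mcl1 ended without ProB array 1 (-0.49) and with CLP array 2 alone (-0.89). Mcl1 is therefore uncertain between ProB and CLP. Bcl2l1 was -0.042 after centring on housekeeping genes and was not called on the mean of its probe sets (0.22). It lost its call without ProB array 1 (0.87), ProB array 2 (0.74) or CLP array 3 (0.68), while 2 members rose without CLP array 2.

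Of 20 adhesion and homing genes tested 6 rose, 6 fell and 8 were not called, with a median of -0.01. Besides Ccr9 and Cxcr4, Cd44, a receptor for hyaluronan, fell by 2.08, with 8.28 and 8.32 in ProB and 10.28, 10.64 and 10.21 in CLP. Selplg, the ligand of P-selectin, fell by 1.78. Icam2 had 8.63 and 9.21 in ProB and 6.82, 7.61 and 6.55 in CLP, a rise of 1.93, and the integrin chain Itgb1 rose by 1.74 with all CLP arrays and was 0.73 above CLP array 2, not called there. Without ProB array 1 the number that rose was 3, and with CLP array 2 alone 4 rose and 6 fell.

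Of 18 glycolysis and transport genes tested with all CLP arrays 10 rose, 1 fell and 7 were not called, with a median of 0.91. After centring on housekeeping genes 5 of them rose and 5 fell, with a median of 0.06. The median of the housekeeping list, on which the arrays were then centred, was -0.0047. Pfkp, a control point of glycolysis, had 8.05 and 8.03 in ProB and 5.88, 6.21 and 4.28 in CLP, a rise of 2.58. Its other probe sets (-0.06 and 0.22) were not called. The lactate carrier Slc16a1 rose by 2.49. Pkm rose by 1.78. Ldha, lactate dehydrogenase, had 10.41 and 10.89 in ProB and 8.51, 10.32 and 8.40 in CLP, so CLP array 2 lay near the ProB arrays and CLP arrays 1 and 3 did not. Set against CLP array 2 alone, 4 rose, with a median of 0.38, and Ldha (0.33), Pgam1 (0.56) and Slc3a2 (0.78) were not called. Housekeeping genes showed the same split: 9 of 16 rose with all CLP arrays (median 0.84), but 3 rose and 2 fell with CLP array 2 alone (median 0.22). Without ProB array 2, 6 of the glycolysis list rose, Ldha (1.34) lost its call, and 4 housekeeping genes rose. The 1 member that fell, Slc2a3, was not called without ProB array 2, CLP array 1 or CLP array 2.

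**Figure D4:**
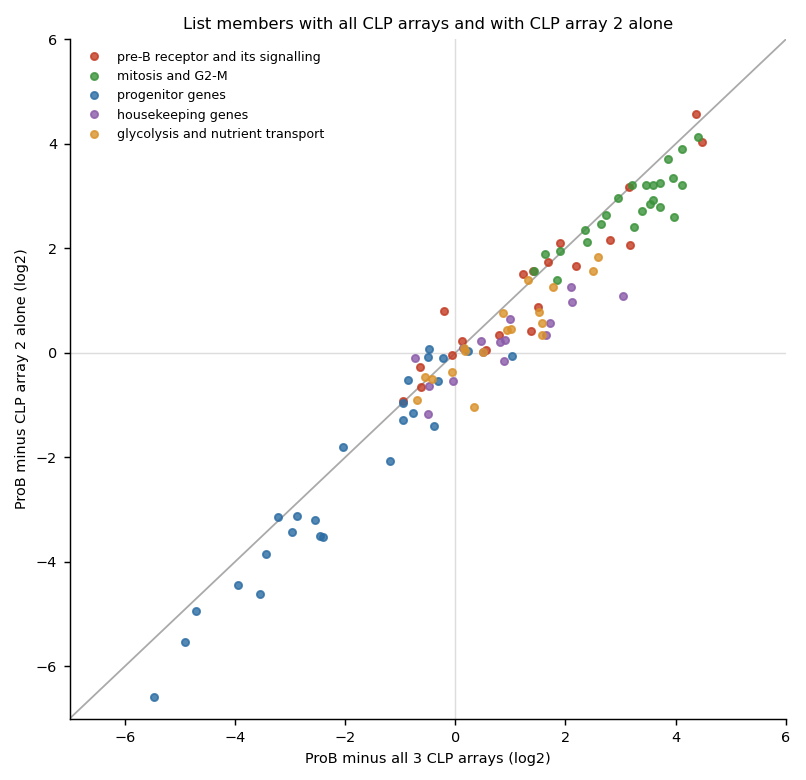
Difference of list members with ProB set against all 3 CLP arrays (horizontal axis) and against CLP array 2 alone (vertical axis), both on the log2 scale; the diagonal marks equal values. All 24 mitosis genes lie above 0 on both axes, and housekeeping and glycolysis genes lie mostly below the diagonal.

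Genes that respond to cell handling and to interferon were also counted. Of 22 immediate early genes 6 rose, 3 fell and 13 were not called, with a median of 0.26, or -0.58 after centring on housekeeping genes. Klf4 (2.48), Jun (2.23) and Dusp1 (1.74) rose, and their part in other differences was not tested. The other probe set of Klf4 (0.57) was not called. Hspa1b (2.53), a heat shock gene, was not called without ProB array 1 (2.78), ProB array 2 (2.29) or CLP array 3 (2.37), nor with CLP array 2 alone (2.68). Egr1, called lower with overlapping arrays (-1.34, adjusted p = 0.0499), was 0.13 against CLP array 2 and lost its call without ProB array 1 (-0.83), CLP array 1 (-1.26) or CLP array 3 (-0.68). Against CLP array 2 alone 6 rose and 1 fell. Of 22 interferon-stimulated genes 2 rose, 5 fell and 15 were not called, with a median of -0.47. Against CLP array 2, 1 of them rose and 6 fell, at a median of -0.53. Oasl2 fell by 2.25, Rsad2 by 2.08 and Ifitm3 by 1.80, and Ifi27l2a rose by 2.29. Ifit2 (1.49) lost its call without ProB array 2 (1.20), without CLP array 1 (0.94) and with CLP array 2 alone (0.97), and without CLP array 2, 5 rose.

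Genes of the sex chromosomes separated the groups. Xist, which is transcribed from the inactive X chromosome of females, had 9.87 and 10.29 in ProB and 5.38, 3.83 and 4.50 in CLP, a rise of 5.51. The Y-linked genes Eif2s3y and Kdm5d fell by 4.48 and 3.91, with Eif2s3y at 2.49 and 2.57 in ProB and 6.94, 8.45 and 5.63 in CLP. Of 4 sex-linked genes tested 1 rose and 3 fell, and with CLP array 2 alone 1 rose and 2 fell. The labels do not give the sex of the mice. The sex-linked genes moved with the groups on all 5 arrays, so an effect of sex and of cell type cannot be told apart.

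Among the remaining genes of widest change were several with no list. Pfn2, a profilin (5.35), Sgk1, a kinase of the AGC family (4.98), Ptgr1, a prostaglandin reductase (4.90), and Tmem255a (4.79) rose. Tmem255a had 7.44 and 7.85 in ProB and 2.85, 2.74 and 2.97 in CLP. Of those that fell, Mn1, a transcriptional cofactor, had 3.68 and 3.68 in ProB and 9.32, 8.91 and 9.97 in CLP, a fall of 5.72 (SE 0.30, adjusted p = 4.21e-10). Pdgfrb, a growth factor receptor, fell by 5.45, Chdh, choline dehydrogenase, by 5.32, and Cmah, an enzyme of sialic acid synthesis, by 4.91. Bex6 (-4.89), Mpeg1, a pore-forming protein of phagocytes (-4.89), Slc35d3 (-4.77) and Ncf1, a subunit of the phagocyte oxidase (-4.57), complete the 12 widest falls. These genes were picked among those without overlap between the groups, which also fixes the sign of their differences from CLP array 2. With CLP array 2 alone the differences ran from -5.91 for Pdgfrb to 5.45 for Pfn2.

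A set of 120 genes (0.89% of those tested) was called at least 1 unit higher in ProB than in every other population of the series, CLP included. Antigen receptor genes apart (Ighg3 4.76 and Igha 4.59), Tmem255a led by its margin of 4.79 over the next population, followed by Igll1 (4.47), the cytokine gene Il33 (4.33), Enpep (4.28), Jchain (4.02) and Mzb1 (3.75). Il33 had 7.62 and 6.16 in ProB and 2.57, 2.46 and 2.66 in CLP. Pou2af1 (3.58), the insulin receptor substrate Irs1 (3.39), the cilium gene Rsph9 (3.35) and the R-spondin receptor Lgr5 (3.28) came next. Lgr5 had 7.31 and 6.52 in ProB and 3.23, 3.51 and 3.39 in CLP, and its means in all other populations lay between 3.05 and 3.64. For Pou2af1 and Jchain the next population was CD4 T cells, at 7.32 and 7.52.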

How the data were processed

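The authors deposited 1 table of 20 arrays with a linear intensity for each of 45101 probe sets. RMA, a method that corrects background and normalizes arrays together, is the tool named per the submitters' processing notes, without a version in what was used here. The design had assumed log2 values, so log2 of the deposited intensities was taken first. No columns were identical.

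A gene was read on its single-symbol probe set of highest mean, with names from the platform table: 34958 probe sets had 1 symbol, 932 several and 9211 none here, and 34754 of the first matched a RefSeq table of GRCm38.p6 by Entrez ID. Of 18194 genes, 13479 were tested, each being above the median of its array on 2 arrays or more. Limma 3.58.1 in R 4.3.3 (lmFit, eBayes with trend) fitted 9 groups over 20 arrays with 11 residual degrees of freedom, adjusted by Benjamini-Hochberg over all genes tested. The code was tested on simulated data. With 2 and 3 arrays per group the number of arrays limits the precision. Where a group kept 1 array, that array was assumed to vary like the other groups.

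Named genes were the 12 widest rises and falls without overlap (antigen receptor segments and unnamed gene models left out unless listed), up to 6 called members of each of 23 lists (all members of the transcription factor, pre-B receptor, recombination and cytokine lists), the 10 widest margins of ProB with the same genes left out, and the promoters of the widest rises; other genes are marked where they appear. Members, lists and alternatives were chosen with earlier results of these data known. Motifs were counted in the 250 bases before each start. Alternatives were other filters on dim genes, other uses of probe sets, no trend, array weights, a fit on the 5 arrays alone, repeated quantile normalization, centring on housekeeping genes, a 2-fold threshold, a replicate block, leaving out each array, and CLP array 2 as the single CLP array.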

Additional observations from a re-analysis of the deposited data

How the results depend on the processing

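For genes that differ between ProB and CLP, all arrays gave 4726, with 2840 genes higher in ProB than in CLP and 1886 genes lower in ProB than in CLP. A fit on the ProB and CLP arrays alone called 1584 (1059 higher, 525 lower), a 2-fold threshold 663 (439 and 224), centring on housekeeping genes 8298 (1150 and 7148), repeated quantile normalization 2516 higher and 2402 lower, and CLP array 2 as the single CLP array 2457 (1223 and 1234). Leaving out 1 array gave 3066 (without ProB array 2) to 6181 (without CLP array 2) calls, with 1881 to 3757 higher and 1185 to 2424 lower. The 120 genes higher in ProB than in each other population became 37 under the 2-fold threshold and 97 to 132 with 1 array left out. Among named genes called before or after the change, centring on housekeeping genes turned the sign for Ptpn6 (-0.73), Xrcc6 (-0.78), Pim2 (-0.76), Tgfbr1 (-0.79) and Bcl2l1 (-0.042). Among such genes it turned when probe sets of each gene were averaged for Xrcc6 (-0.75) and Mcl1 (0.0302), and with CLP array 2 alone for Xrcc6 (-0.99) and Egr1 (0.13). The causes were not tested; fewer arrays also enlarge the error. ProB and CLP share 2 replicate numbers, and the deviations of same-numbered arrays correlated at -0.03 and -0.05, so the numbers do not show a pairing; the fit with the replicate number as a block called 4265 genes (2531 higher, 1734 lower) and left 116 highest in ProB. Of 196 named genes 159 were called, of which 84 were called under every alternative run and 75 were lost in at least 1, most often under the 2-fold threshold (75) and the fit on the 5 arrays alone (43). Signal near background limits dim genes: 4715 genes were not tested.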

Other observations

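Immunoglobulin genes lay outside the rule for named genes and were picked out after their values were seen. Igha, the constant region of IgA, had 12.13 and 12.77 in ProB and 5.37, 4.74 and 5.54 in CLP, a difference of 7.24 (SE 0.37, adjusted p = 2.75e-10 by limma). Ighg3, the constant region of IgG3, had 9.25 and 9.39 in ProB and 4.18, 3.77 and 4.68 in CLP, a difference of 5.11, and the kappa segment Igkv8-30 had 8.98 and 9.07 in ProB and 3.49, 2.93 and 3.23 in CLP, a difference of 5.81. Igha also averaged 7.86 in CD4 T cells, where Ighg3 averaged 4.56. In each gene the ProB arrays stood far above every CLP array. Whether a probe set reads 1 constant region alone was not tested.

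Probe sets of Ighm, the constant region of IgM, gave different readings. The one of highest mean had 12.46 and 12.90 in ProB and 11.04, 11.11 and 11.67 in CLP and was not called (1.41, SE 1.08, adjusted p = 0.322), and its mean in LMPP was 11.13. Another probe set had 10.91 and 11.34 in ProB and 3.69, 2.93 and 3.08 in CLP, a difference of 7.89. Further probe sets differed by 6.94, 6.17, 5.84, 4.04 and 2.56, each called with adjustment over all probe sets tested, and by 1.49, 0.25 and -0.00029, not called. The difference of Ighm between ProB and CLP is therefore uncertain in size.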
